A study of Mus musculus with 12 samples.

Results

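Mouse plasmablasts that lacked Mzb1 were compared with plasmablasts that carried it, over 4 of the 12 libraries of the series. The members are the 2 libraries titled as Mzb1 ko plasmablasts and the 2 titled as Mzb1 wt plasmablasts. Wild-type (wt) cells were Mzb1+/+ Prdm1+/gfp and knockout (ko) cells were Mzb1-/- Prdm1+/gfp, both on the C57BL/6 strain. Every library therefore came from cells in which 1 Prdm1 allele, the gene of the transcription factor Blimp1, carries a green fluorescent protein reporter. Spleen B cells taken on anti-B220 beads were grown with lipopolysaccharide (LPS), a bacterial activator of B cells, at 25 µg/ml for 4 days, and plasmablasts were sorted as positive for CD138 and for the reporter. The other 8 libraries are activated B cells (negative for both) and pre-plasmablasts (positive for the reporter only), with 2 libraries for each genotype. Mzb1 was absent from the animal and not from the B lineage alone, as far as the labels say, and all cells were made in culture. The labels number the replicates but do not say whether they came from separate animals or cultures, and give no age.

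Mzb1 encodes a small resident protein of the endoplasmic reticulum (ER) that works beside the chaperone Grp94, the product of Hsp90b1, and that is known for helping immunoglobulin assembly and the folding of integrins in B cells and antibody-secreting cells. Plasmablasts arise when Blimp1, Irf4 and Xbp1 switch off the B cell programme, kept up by factors such as Pax5 and Spi-B, and expand the secretory apparatus. The title of the series names the beta1 integrin, which Itgb1 encodes.

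Levels are FPKM, sequenced fragments per unit of transcript length and of library size, and the test covered the 11069 genes that reached 1 FPKM in 2 or more of the 12 libraries. A log2 change is the ko mean minus the wt mean of log2(FPKM + 1), which understates the change of low genes, and a fold is the same difference on the FPKM + 1 scale. A gene is called where limma, fitted to all 12 libraries, gave a Benjamini-Hochberg adjusted p below 0.05. P-values measure the spread between these libraries, which may be technical.

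The targeted gene was checked first. Mzb1 stood at 15434 and 17359 FPKM in wt plasmablasts and at 1008 and 926 FPKM in ko plasmablasts. It fell by 4.08 on the log2 scale (SE 0.13, limma adjusted p = 9.37e-08, n = 2 against 2), a 16.9-fold lower level on the FPKM + 1 scale. Signal remained at the symbol in all ko libraries, and the files do not say which part of the gene the remaining fragments came from. In the other populations wt Mzb1 was 845 and 1016 FPKM in activated B cells and 10066 and 9926 FPKM in pre-plasmablasts, against 273 and 289 FPKM and 899 and 871 FPKM in ko.

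The sort label was checked against its markers. Sdc1, which encodes CD138, was 76.3 and 88.2 FPKM in wt and 66.5 and 98.4 FPKM in ko, and did not exceed 5.24 FPKM in any pre-plasmablast library. Prdm1 was 218 and 226 FPKM in wt and 263 and 227 FPKM in ko. Xbp1 was 2363 and 2519 FPKM in wt and 2031 and 2013 FPKM in ko, and Irf4 was 268 and 289 against 310 and 266 FPKM. None of the 8 plasmablast markers was called. Granulocyte, mast cell and erythroid markers were below 1 FPKM in all 4 libraries, with S100a8, S100a9, Elane, Mpo, Mcpt8, Cpa3, Fcer1a, Hba-a1 and Hbb-b1 listed at 0. The summed level of the 7 B cell markers was 2252 and 2429 FPKM in wt and 2733 and 2807 FPKM in ko, so the ko libraries were both higher, and 1 of the 7, Pax5, was called. Summed T cell markers were 11.0 and 7.93 FPKM in wt and 11.6 and 15.6 FPKM in ko, with Cd8a and Themis at 0. Summed macrophage and monocyte markers were 55.3 and 51.6 FPKM against 46.3 and 67.4 FPKM. Those of stroma and endothelium lay between 9.24 and 14.9 FPKM, with both ko libraries above both wt libraries, and natural killer cell markers summed to 0.367 and 0.984 FPKM in wt and 2.41 and 2.46 FPKM in ko. Dendritic cell and platelet markers summed to at most 10.7 FPKM in any of the 4 libraries. No tested marker of these other cell types was called. The part of such cells in the results was not tested.

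Depth is unknown, because no counts were used. Total FPKM per library ran from 418966 to 581262, with 10180 to 10466 genes at 1 FPKM or more. They differed in ways the groups do not name. Small RNA genes held 1.59% and 0.981% of total FPKM in wt plasmablasts and 3.93% and 3.24% in ko plasmablasts. Among genes below 0.5 FPKM, libraries of like fragment pattern shared 1 ratio of values in 7.70% to 20.5% of genes, and libraries of unlike pattern in 2.13% to 4.89%. Replicate 1 of the ko pre-plasmablasts and of the ko activated B cells had the first pattern, as had the 6 wt libraries. The second pattern held 4 libraries, among them both of ko plasmablasts. In plasmablasts the pattern and the genotype cannot be told apart. Wt replicate 1 also carried Xist, at 33.3 FPKM in plasmablasts against at most 0.389 FPKM in the other 3 plasmablast libraries. It listed the Y-linked genes Ddx3y, Eif2s3y and Uty at 0 there. Eif2s3y was 58.1 FPKM in wt replicate 2 and 51.6 and 43.0 FPKM in ko plasmablasts. By these transcripts wt replicate 1 reads as female and the other 3 as male, so sex was not balanced between genotypes.

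In plasmablasts 45 of 11069 genes were called, 0.407% of those tested. Of these, 29 rose in ko (0.262%) and 16 fell (0.145%), and for 20 the log2 change was 1 or more in size. Scaling bears on that split. With libraries rescaled to equal totals, summed without small RNA genes, the calls were 60 higher and 12 lower. With a term for Xist they were 27 higher and 10 lower. For all 45 genes the ko libraries lay outside the range of the wt libraries. Among them, 1700041A01Rik passed the filter only through the ko plasmablast libraries, so its call is no independent support. Over all genes tested 28.0% had both ko libraries above both wt libraries and 21.2% had both below. The median log2 change over all genes was 0.03, and 1767 genes had an unadjusted p under 0.05. The count rested on single libraries: it was 11 without wt replicate 1, 11 without wt replicate 2, 10 without ko replicate 1 and 40 without ko replicate 2.

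**Figure D1:**
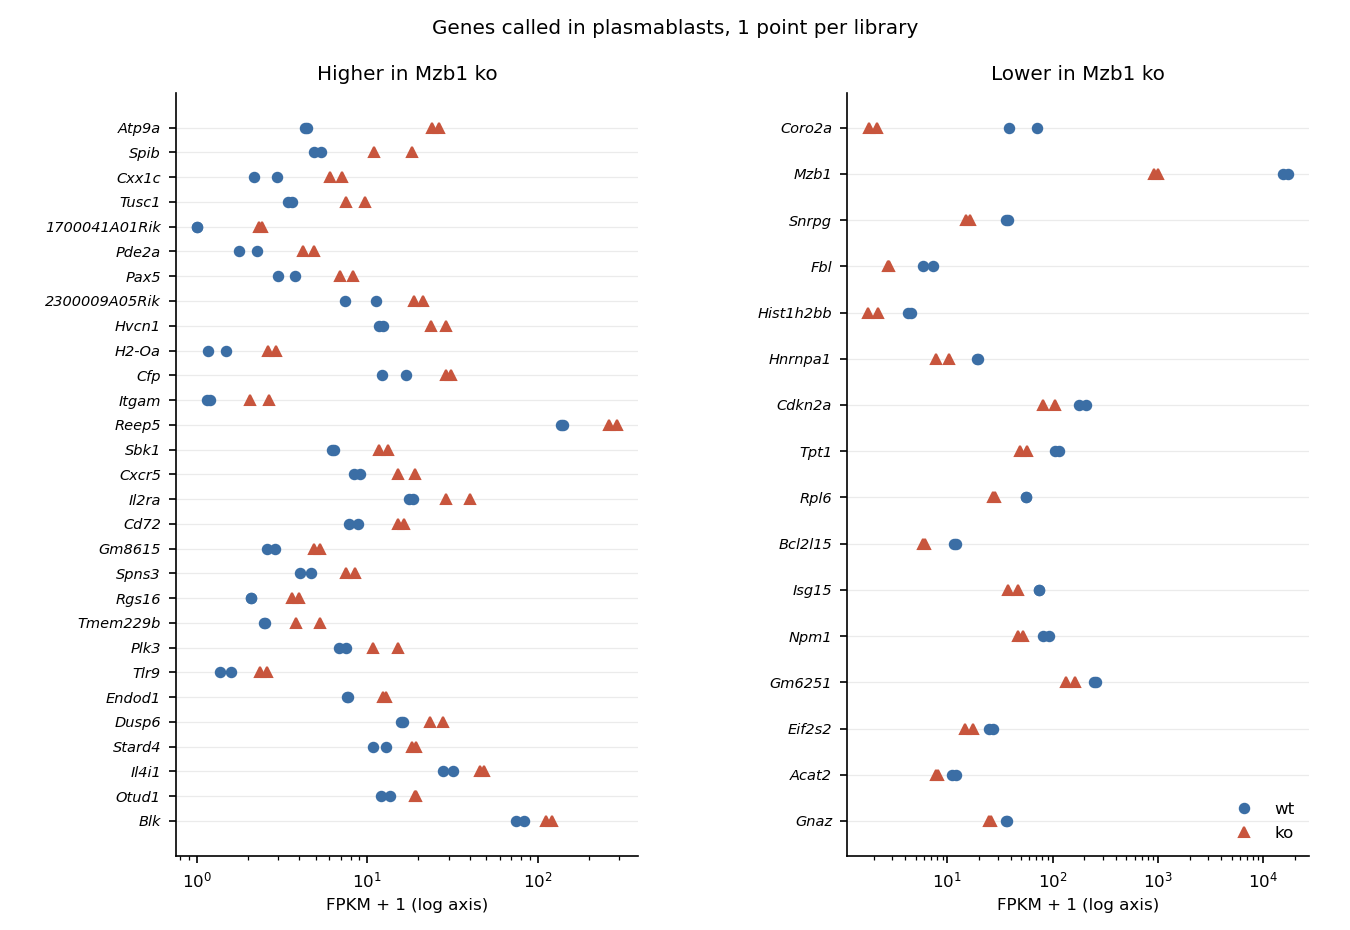
FPKM + 1 on a log axis for the 29 genes called higher (left) and the 16 called lower (right), 1 point per plasmablast library, wt as circles and ko as triangles. No ko point lies within the span of the wt points of its gene, and Mzb1, Coro2a and Atp9a have the widest gaps.

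The largest fall among called genes was that of Coro2a, which encodes a coronin, an actin-binding protein. Coro2a was 37.8 and 70.2 FPKM in wt plasmablasts and 1.16 and 0.786 FPKM in ko. It fell by 4.74 on the log2 scale (SE 0.35, limma adjusted p = 0.000214). The wt libraries differed from each other, and both ko libraries were far below either. Coro2a was called lower in the other populations too: ko values were 1.11 and 0.720 FPKM in pre-plasmablasts, against 44.1 and 77.5 FPKM in wt, and 0.706 and 0.406 FPKM in activated B cells, against 17.0 and 32.3 FPKM. Of 40 tested genes of coronins and actin dynamics, Coro2a was the only one called in plasmablasts.

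The largest rise among called genes was that of Atp9a, which encodes a P4-type ATPase, a family known for moving lipids across membranes. Atp9a was 3.43 and 3.33 FPKM in wt plasmablasts and 23.2 and 25.2 FPKM in ko, 5.75-fold higher on the FPKM + 1 scale (log2 2.52, SE 0.17, limma adjusted p = 0.000157). In pre-plasmablasts it was 2.74 and 2.23 FPKM in wt and 13.96 and 15.3 FPKM in ko. In activated B cells all 4 libraries were at or below 0.673 FPKM, and the ko effect in plasmablasts exceeded that in activated B cells by 2.25 on the log2 scale (SE 0.25, limma adjusted p = 0.00953). Atp9a was the only one of 15 tested flippase and scramblase genes called. Mzb1, Coro2a and Atp9a were the only genes called under all 16 other settings that were run.

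**Figure D2:**
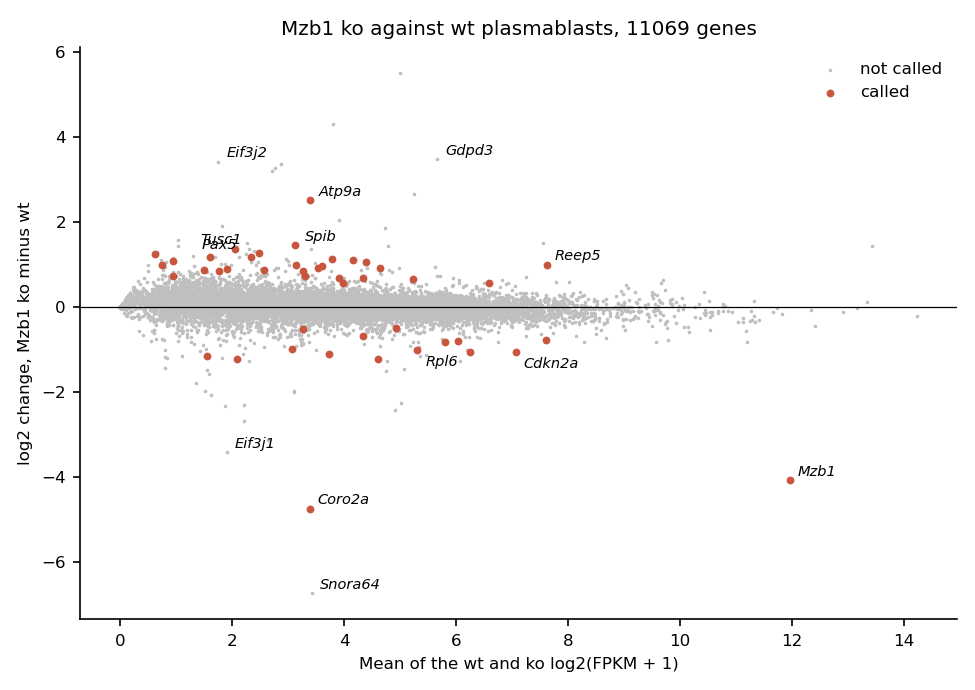
The log2 change of each of the 11069 genes (y axis, ko minus wt plasmablasts) against its mean log2(FPKM + 1) over both groups (x axis), with called genes as larger points. Mzb1, Coro2a and Atp9a stand apart from the other called genes, and some genes with changes as large, such as Eif3j1, Gdpd3 and Snora64, were not called.

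Reep5, which shapes ER tubules, was the most abundant gene that rose. Its level was 140 and 136 FPKM in wt plasmablasts and 262 and 292 FPKM in ko (log2 1.00, SE 0.10, limma adjusted p = 0.0031). The ko libraries were also higher in pre-plasmablasts, at 206 and 204 FPKM against 106 and 97.4 FPKM, and in activated B cells, at 75.1 and 76.2 FPKM against 42.5 and 53.2 FPKM. Tusc1, a tumour suppressor candidate, was 2.45 and 2.64 FPKM in wt and 8.77 and 6.55 FPKM in ko plasmablasts (log2 1.28, SE 0.16, limma adjusted p = 0.00752), and it was called in the same direction in both other populations. Gene order in the GRCm38.p6 annotation puts Reep5 and Stard4 on the chromosome of Mzb1, with 19 tested genes between Reep5 and Mzb1. Of the 40 tested genes nearest to Mzb1 in that order, 20 on each side, 1 was called, and their median log2 change was 0.01.

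Genes of the B cell programme made up the largest named group of those that rose. Of 36 tested members of the B cell identity list 4 rose and 0 fell, against 0.262% and 0.145% of all genes. In 22 both ko libraries lay above both wt libraries (28.0% of all genes) and in 1 below (21.2% of all genes). Their median log2 change was 0.24, against 0.03 for all genes. The 4 that rose were Spib, Pax5, Cd72 and Blk. The median of this list lay between 0.20 and 0.33 under the other scalings and terms run. The count of 4 became 1 without wt replicate 1, without wt replicate 2 or without ko replicate 1, and 0 once the fragment pattern was a term of the fit.

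Spib, which encodes the B cell transcription factor Spi-B, was 4.37 and 3.91 FPKM in wt plasmablasts and 17.2 and 9.94 FPKM in ko (log2 1.46, SE 0.20, limma adjusted p = 0.0148). Pax5, the factor that holds B cell identity, was 2.02 and 2.76 FPKM in wt and 7.24 and 5.92 FPKM in ko (log2 1.17, SE 0.12, limma adjusted p = 0.0031). Cd72, an inhibitory receptor of B cells, was 7.89 and 6.88 FPKM against 15.3 and 14.2 FPKM. Blk, a Src-family kinase of the B cell receptor pathway, was 82.0 and 73.6 FPKM against 120 and 111 FPKM. These 4 genes were low or moderate in plasmablasts of both genotypes: wt activated B cells held 395 and 482 FPKM of Spib and 151 and 147 FPKM of Pax5. Among members that did not pass the test, Cd22 was 1.26 and 0.971 FPKM in wt and 5.39 and 2.56 FPKM in ko (adjusted p = 0.0743), and Cd79a, the signalling chain of the B cell receptor, was 586 and 741 FPKM against 1084 and 981 FPKM.

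Of the other genes that rose, Cxcr5, the receptor that guides B cells to follicles, was 8.12 and 7.41 FPKM in wt and 17.96 and 14.2 FPKM in ko (log2 0.95, SE 0.11, limma adjusted p = 0.00539). Hvcn1, a proton channel, was 10.7 and 11.5 FPKM against 27.98 and 22.6 FPKM (log2 1.11). Tlr9, the receptor for unmethylated DNA, was 0.375 and 0.583 FPKM against 1.57 and 1.36 FPKM, and was the only one of 20 tested Toll-like receptor genes called. Il2ra, the alpha chain of the interleukin-2 receptor, was 17.6 and 16.5 FPKM against 39.3 and 27.9 FPKM. Cfp, which encodes the complement factor properdin, was 11.2 and 15.9 FPKM against 30.02 and 27.9 FPKM. Each of these genes was higher in both ko libraries than in either wt library, as was every gene called higher, so this adds no support.

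In the MHC class II list 1 of 13 tested members rose and 0 fell, with 11 of the 13 higher in both ko libraries, against 28.0% of all genes, and a median log2 change of 0.41. With the fragment pattern as a term the median was 0.28 and 0 were called. The member called was H2-Oa, which restrains peptide loading, at 0.479 and 0.172 FPKM in wt and 1.93 and 1.61 FPKM in ko (log2 1.07, SE 0.17, limma adjusted p = 0.0291). H2-Ab1 and H2-Eb1 had log2 changes of 0.56 and 0.52 and were not called. In the list of B cell receptor and inhibitory signalling, which shares members with the identity list, 1 of 30 rose, Cd72, and the median was 0.19.

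The called genes that rose were set against a step that uses no plasmablast library, from wt activated B cells to wt pre-plasmablasts. Of the 29 genes, 17 fell along that step (58.6%), where 26.3% of all genes tested fell, and 7 rose. Over all 2911 genes that fell along the step, 33.1% had both ko plasmablast libraries above both wt libraries and 21.4% below, against 28.0% and 21.2% of all genes, and their median log2 change in plasmablasts was 0.05. Of the 193 that fell by at least 2 on the log2 scale, 102 (52.8%) had both ko plasmablast libraries above both wt libraries, and 11 were called higher and 0 lower, with a median of 0.28, so most of the 193 were not called. Of the 274 genes that rose by at least 2, 0 were called higher and 2 lower, and their median log2 change in plasmablasts was -0.01. Those 2 were Cdkn2a and Mzb1, the targeted gene, whose fall was fixed by the design. Over all genes 0.262% were called higher and 0.145% lower. For the 11 called genes the gain in mean FPKM was 1.53% to 14.7% of the wt activated B cell level, with the lowest share for Itgam and the highest for Il4i1. A gain was fixed in advance for these 11, since all were called higher. Over all 193 genes it ran from -75.6% to 92.2%, with a median of 1.86%. Whether cells that had not differentiated took part in this was not tested, and a larger number of such cells and more RNA per cell cannot be told apart in bulk libraries.

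**Figure D3:**
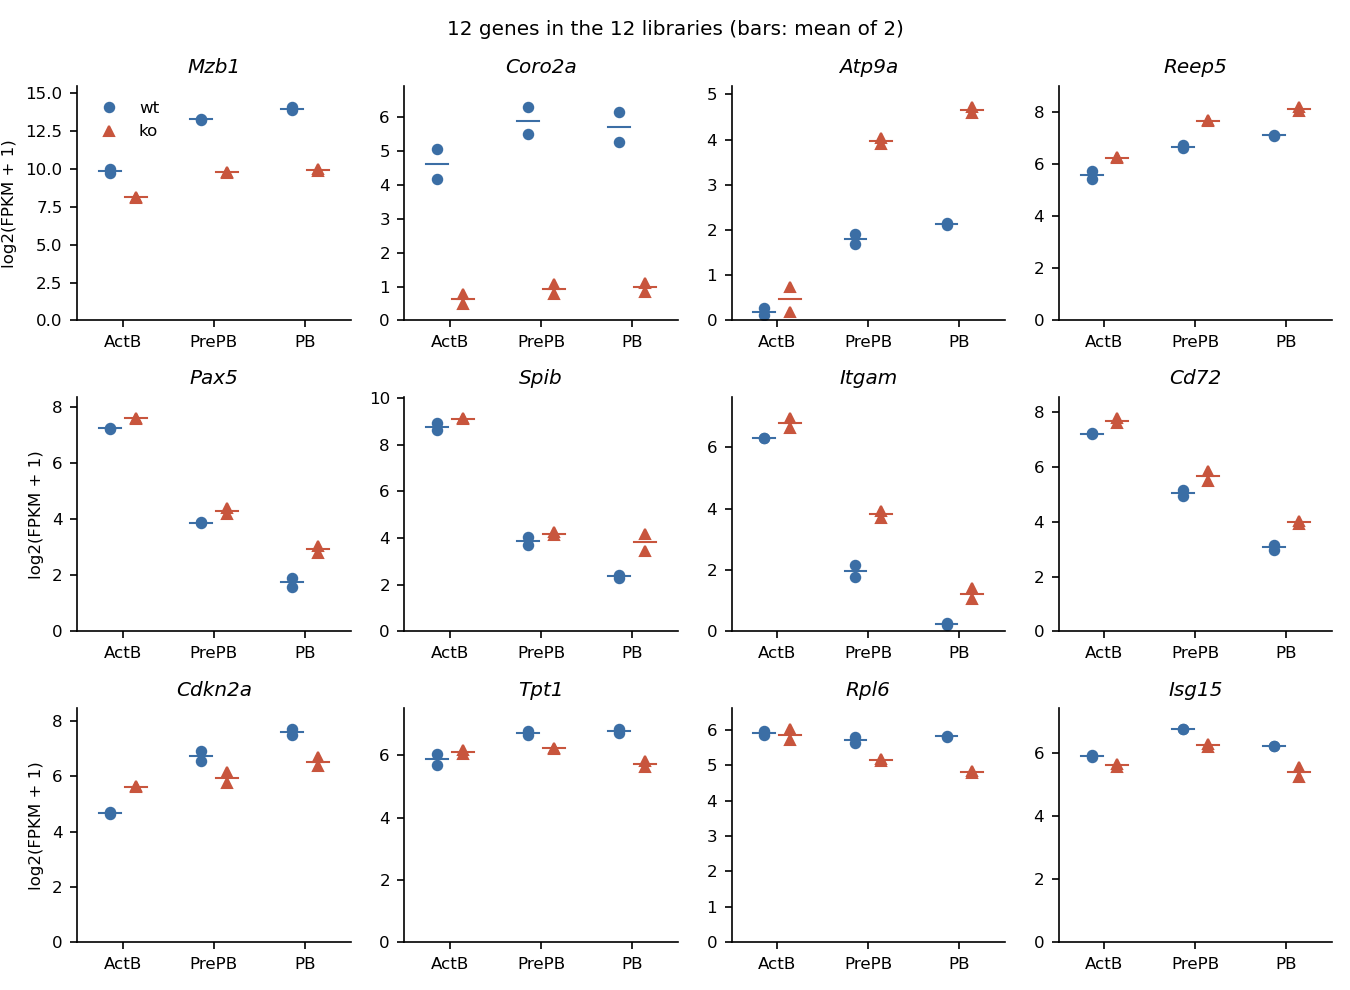
log2(FPKM + 1) of 12 genes in activated B cells (ActB), pre-plasmablasts (PrePB) and plasmablasts (PB), 1 point per library, wt as circles and ko as triangles, with bars at the mean of 2. Coro2a is low in all ko libraries, Pax5, Spib, Itgam and Cd72 decline from ActB to PB in both genotypes with ko above wt in PB, and Cdkn2a is higher in ko ActB but lower in ko PB.

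Promoter sequence is shown for the 4 called genes in whose windows the core bound by PU.1 and Spi-B was found, since Spib rose. Windows from RefSeq (GRCm38.p6, not the build of the files) reach from 250 bases before to 50 after an annotated start, and 29 of the 45 called genes matched, with 39 windows. The core bound by PU.1 and Spi-B, GAGGAAGT, was searched on both strands and occurred in 3.2% of all 32851 windows and in 4 of the 39 (10.3%), those of Cd72, Il4i1, Tlr9 and Acat2. The core bound by Blimp1 and by interferon regulatory factors, GTGAAAG, occurred in 4.24% of all windows and in 3 of the 39, in Coro2a, Pde2a and Tlr9. The Cd72, Il4i1 and Tlr9 genes rose and Acat2 fell. Below, each sequence runs from 250 bases before to 20 after the start on the strand of the gene, 5′ to 3′, and capitals mark the motifs, which on the opposite strand read ACTTCCTC.
Cd72, chr4:43454607-43454876, minus strand: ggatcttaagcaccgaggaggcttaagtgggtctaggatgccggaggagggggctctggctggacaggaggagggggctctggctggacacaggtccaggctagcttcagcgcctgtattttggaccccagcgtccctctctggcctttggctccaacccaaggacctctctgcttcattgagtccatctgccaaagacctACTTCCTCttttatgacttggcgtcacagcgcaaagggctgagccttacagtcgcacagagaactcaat
Il4i1, chr7:44836038-44836307, plus strand: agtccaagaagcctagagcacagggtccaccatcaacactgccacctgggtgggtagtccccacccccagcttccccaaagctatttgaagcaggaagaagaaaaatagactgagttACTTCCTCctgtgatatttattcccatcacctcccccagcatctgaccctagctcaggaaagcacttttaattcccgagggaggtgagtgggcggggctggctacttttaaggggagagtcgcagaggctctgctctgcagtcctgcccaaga
Tlr9, chr9:106222348-106222617, plus strand: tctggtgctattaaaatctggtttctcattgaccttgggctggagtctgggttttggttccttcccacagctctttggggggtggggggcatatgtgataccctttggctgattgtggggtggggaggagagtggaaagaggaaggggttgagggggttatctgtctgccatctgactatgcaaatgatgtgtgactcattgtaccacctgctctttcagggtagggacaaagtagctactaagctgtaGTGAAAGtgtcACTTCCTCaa
Acat2, chr17:12960706-12960975, minus strand: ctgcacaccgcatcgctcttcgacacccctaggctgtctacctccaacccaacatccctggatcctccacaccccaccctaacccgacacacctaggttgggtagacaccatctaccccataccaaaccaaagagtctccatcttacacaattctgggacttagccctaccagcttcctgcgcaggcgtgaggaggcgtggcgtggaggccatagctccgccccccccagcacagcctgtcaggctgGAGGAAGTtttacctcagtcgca
In Tlr9 both cores lie at the start of the gene, with the Blimp1 and interferon regulatory factor core first. A match is a string of letters and not a measured binding site. Il4i1, an enzyme that breaks down amino acids, was 30.9 and 26.8 FPKM in wt and 47.3 and 44.8 FPKM in ko (log2 0.66), and Acat2, an enzyme of sterol precursor synthesis, was 11.0 and 10.0 FPKM against 6.83 and 7.15 FPKM (log2 -0.53).

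Itgam, the integrin alpha M chain, was the only integrin chain called among 12 tested. It was 0.152 and 0.197 FPKM in wt plasmablasts and 1.67 and 1.06 FPKM in ko (log2 1.00, SE 0.17, limma adjusted p = 0.0377). In pre-plasmablasts it was 3.44 and 2.46 FPKM against 14.3 and 12.1 FPKM, also called. Itgb1, the beta1 chain, was 37.7 and 36.3 FPKM in wt plasmablasts and 31.4 and 35.4 FPKM in ko. Its log2 change was -0.15, with a 95% interval from -0.39 to 0.10 (limma adjusted p = 0.552). The interval holds both no change and a fall of up to 0.39. Both ko libraries were below both wt libraries here, as for 21.2% of all genes, and also in the other populations. Itgb1 was 29.3 and 33.2 against 34.4 and 35.8 FPKM in pre-plasmablasts (log2 -0.17). In activated B cells it was 122 and 135 against 137 and 168 FPKM (log2 -0.24), and it was called in neither. Itga4 was 75.6 and 64.0 FPKM against 61.1 and 75.6 FPKM (interval -0.41 to 0.34), Itgal 120 and 136 against 129 and 141 FPKM (interval -0.18 to 0.32), and Itgb2 145 and 166 against 166 and 191 FPKM (interval -0.10 to 0.50). Itgb7 was near 3 FPKM in all 4 libraries. Folding and surface level of the proteins are not read by these values.

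Secretory genes gave no calls. Over all genes only 0.407% were called, so 0 calls in lists of this size is near that share. Of 28 tested ER chaperones and disulfide isomerases 0 were called, their median log2 change was -0.02, and for 23 of them the 95% interval lay within 0.5 of 0 on the log2 scale. Cnpy2, a canopy protein, had the lowest log2 change (-0.37) and Cnpy3, a partner of Grp94 in Toll-like receptor folding, the highest (0.33). Hsp90b1, the gene of Grp94, was 5162 and 5489 FPKM in wt and 4704 and 5470.3 FPKM in ko (interval -0.35 to 0.21), and Hspa5, the gene of BiP, 2321 and 2519 against 2606 and 2753 FPKM (interval -0.11 to 0.40). Direction here depended on scaling. The median of the chaperone list was 0.14 with quantile normalization, where that of all genes was 0.01, and 0.09 with equal totals, where that of all genes was 0.12. With quantile normalization the log2 change was 0.23 for Hsp90b1 and 0.52 for Hspa5, neither called (adjusted p = 0.38 and 0.147). The ko effect was likewise called for 0 of 19 genes of ER-associated degradation, 0 of 25 of the translocon and signal recognition, 0 of 30 of N-glycosylation, 0 of 30 of ER to Golgi transport and 0 of 30 unfolded protein response regulators, with list medians between -0.02 and 0.03. Sec61g, a translocon subunit, had the lowest log2 change of these, at 32.2 and 39.8 FPKM in wt and 22.9 and 25.1 FPKM in ko (log2 -0.56, adjusted p = 0.122). Derl3, a factor of ER-associated degradation, had the highest (log2 0.45, limma adjusted p = 0.0928). It was 456 and 455 FPKM in wt and 678 and 576 FPKM in ko. In the translocon list both ko libraries lay above both wt libraries for 0 of 25 genes and below for 8. These counts were 6 and 4 of 28 for the chaperones and 4 and 6 of 19 for degradation. They were 7 and 4 of 30 for N-glycosylation, 7 and 5 of 30 for transport and 8 and 8 of 30 for the regulators. Over all genes 28.0% lay above and 21.2% below.

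The plasma cell identity list also held 0 called genes of 26, with a median log2 change of -0.03. Tnfrsf17, the receptor BCMA, was 25.8 and 25.0 FPKM in wt and 8.50 and 21.3 FPKM in ko, so the ko libraries differed more from each other than the second did from wt. Jchain, which joins immunoglobulin polymers, was 19050 and 22620 FPKM against 16300 and 19530 FPKM.

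Of the 16 genes called lower, Rpl6, a protein of the large ribosomal subunit, was 54.7 and 55.3 FPKM in wt and 26.4 and 27.5 FPKM in ko (it fell by 1.00 on the log2 scale, SE 0.11, limma adjusted p = 0.0031). Snrpg, a spliceosomal Sm protein, was 36.7 and 35.2 FPKM against 14.1 and 15.5 FPKM (log2 -1.22), and Fbl, the methyltransferase fibrillarin, 4.81 and 6.25 FPKM against 1.82 and 1.75 FPKM (log2 -1.22). Hnrnpa1, an RNA-binding protein, was 18.7 and 18.1 FPKM against 9.36 and 6.86 FPKM, Npm1, a nucleolar chaperone, 90.9 and 80.4 against 45.7 and 51.4 FPKM, and Eif2s2, a subunit of initiation factor 2, 23.6 and 25.9 against 13.6 and 16.5 FPKM. The ko libraries of each of these were below both wt libraries, as for every gene called lower. Among the called genes, a search by symbol in the GRCm38.p6 table found 7 pseudogenes of Tpt1 and 1 each of Fbl, Hnrnpa1, Rpl6 and Tmem229b. It also gave 1 match for Gm8615, which may be the entry of Gm8615 itself. How fragments shared with such copies were assigned is not stated, so the levels of these genes are uncertain. Copies under unrelated symbols were not searched, so the other called genes are not cleared of this.

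The ribosomal protein list of 35 tested genes, of which Rpl6 was not a member, held 0 called genes, but 28 of the 35 had both ko libraries below both wt libraries, against 21.2% of all genes, and the median log2 change was -0.50. That median was -0.39 with equal totals and -0.41 with quantile normalization. Rps14 was 1044 and 972 FPKM in wt and 548 and 587 FPKM in ko (adjusted p = 0.0728), and Rps2 was 383 and 334 against 205 and 240 FPKM (adjusted p = 0.054). Changes of the same sign but smaller size were spread over the proteasome list (22 of 32 with both ko libraries below, median -0.17), oxidative phosphorylation (24 of 34, median -0.18) and cytosolic heat shock genes (16 of 23, median -0.18), each with 0 called. With equal totals these 3 medians were -0.06, -0.07 and -0.07. In ko pre-plasmablast replicate 1, a library of the first fragment pattern, ribosomal protein genes had a median of -0.45 against the wt pre-plasmablast mean, and in ko activated B cell replicate 1 the median was 0.01.

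**Figure D4:**
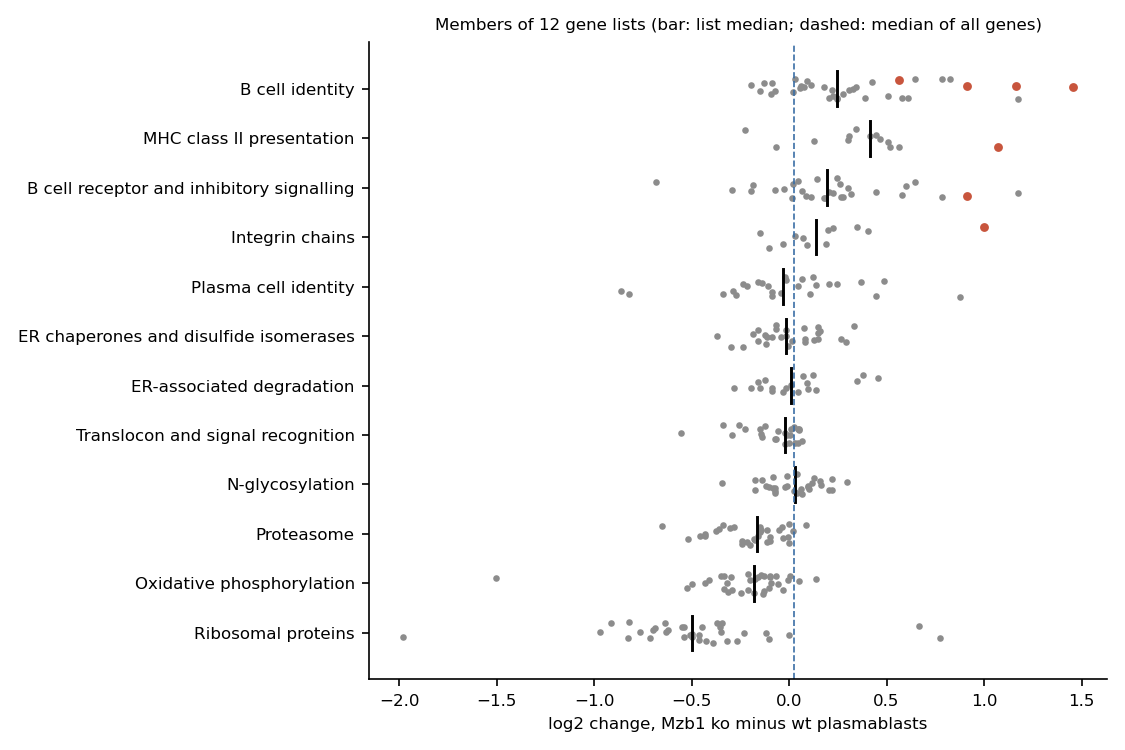
The log2 change in plasmablasts of each tested member of 12 gene lists, 1 point per gene, with called genes as larger points, the list median as a bar and the median of all genes as a dashed line. The B cell identity and MHC class II lists lie to the right of that line, the ER lists straddle it and ribosomal proteins lie to the left, with a median of -0.50.

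Cdkn2a and Tpt1 fell in plasmablasts, and their ko effects there differed from those in activated B cells. Cdkn2a, which encodes the cell cycle inhibitors p16 and p19Arf, was 206 and 177 FPKM in wt plasmablasts and 80.6 and 103 FPKM in ko (log2 -1.06, SE 0.17, limma adjusted p = 0.0291). In activated B cells it was 23.7 and 25.3 FPKM in wt and 49.3 and 47.5 FPKM in ko, a difference that was not called there (adjusted p = 0.161). The difference of the 2 ko effects was -2.01 on the log2 scale (SE 0.23, limma adjusted p = 0.0128). Tpt1, a conserved growth-related protein, was 104 and 113 FPKM against 48.3 and 55.6 FPKM in plasmablasts (log2 -1.05, SE 0.11, limma adjusted p = 0.00316), and its ko effect in activated B cells, not called, was 0.25.

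Isg15, a ubiquitin-like protein induced by interferon, was 72.6 and 72.8 FPKM in wt and 36.6 and 45.8 FPKM in ko (log2 -0.81, SE 0.10, limma adjusted p = 0.0063). It was the only one of 27 tested interferon response genes called, and Oasl1, at 39.0 and 36.2 against 22.7 and 27.4 FPKM, had adjusted p = 0.129. The Isg15 promoter is printed because the core of the interferon-stimulated response element (GAAA, any 2 bases, GAAA), found on either strand in 3.44% of all windows, occurs in it 3 times in overlapping copies. Among the 39 windows of called genes 2 hold that core (5.13%), those of Isg15 and Coro2a.
Isg15, chr4:156200799-156201068, minus strand: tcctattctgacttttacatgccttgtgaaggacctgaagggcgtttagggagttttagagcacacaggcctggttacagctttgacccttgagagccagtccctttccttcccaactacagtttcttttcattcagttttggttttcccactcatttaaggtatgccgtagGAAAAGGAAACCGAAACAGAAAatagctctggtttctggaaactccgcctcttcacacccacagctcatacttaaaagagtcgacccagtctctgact
Bcl2l15, a Bcl2 family protein, was 11.1 and 10.5 FPKM in wt and 5.12 and 4.86 FPKM in ko (log2 -0.98, SE 0.10, limma adjusted p = 0.0031). Gnaz, a G protein alpha chain, was 35.6 and 35.03 FPKM against 25.2 and 24.0 FPKM, and Hist1h2bb, a histone H2B gene, 3.22 and 3.48 against 1.20 and 0.752 FPKM.

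Values in other ko libraries were looked up for the 45 genes, because the fragment pattern follows the genotype in plasmablasts. Ko pre-plasmablast replicate 1, which has the pattern of the wt libraries, lay above both wt pre-plasmablast libraries for 27 of the 29 genes that rose (37.9% of all genes did) and below both for 16 of the 16 that fell (35.9% of all genes). Ko activated B cell replicate 1 lay above both wt libraries for 23 of the 29 (30.2% of all genes) and below for 12 of the 16 (34.7% of all genes). Both counts of genes that fell include Mzb1, the targeted gene. The labels do not say whether the populations came from the same animals or cultures, and Xist marked wt replicate 1 in each. This lookup is therefore not an independent replication. In a fit with a term for the pattern 4 genes were called, and all 45 genes kept their direction. That term was estimated only from the ko replicates of pre-plasmablasts and activated B cells. It therefore cannot separate pattern from genotype in plasmablasts. The 4 genes called were Mzb1, Coro2a, Atp9a and Snord16a. Snord16a is listed at 0 in all 4 plasmablast libraries, so its call came from the term and not from plasmablast values. The 2 exceptions among the genes that rose, in pre-plasmablasts, were 1700041A01Rik and 2300009A05Rik. 1700041A01Rik was 1.41 and 1.31 FPKM in ko plasmablasts and listed at 0 in the other 10 libraries. It was tested only because both ko plasmablast libraries reached 1 FPKM, and it dropped out when either was left out. 2300009A05Rik was 6.42 and 10.2 FPKM in wt and 17.9 and 20.2 FPKM in ko plasmablasts, and between 8.57 and 13.4 FPKM in the other 8 libraries.

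**Figure D5:**
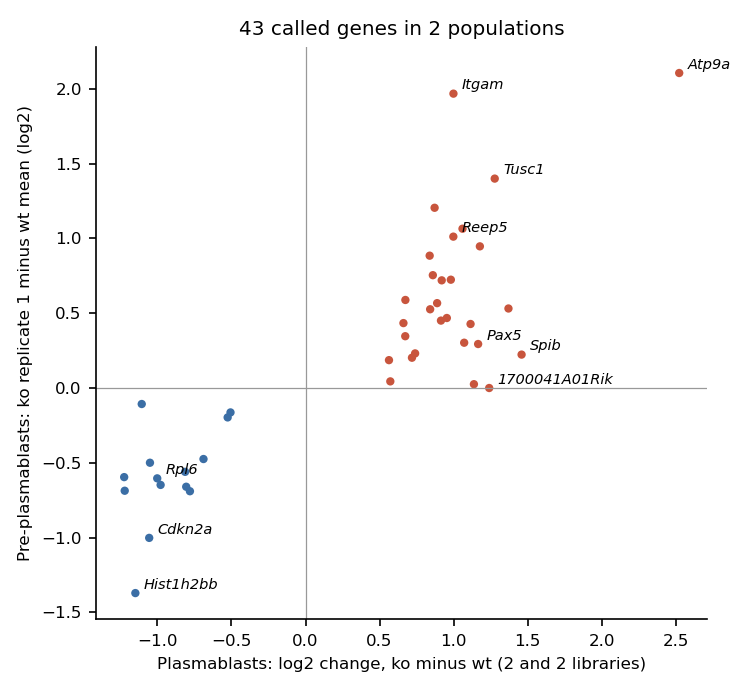
For 43 called genes (all but Mzb1 and Coro2a), the log2 change in plasmablasts (x axis) against the log2 value of ko pre-plasmablast replicate 1 minus the wt pre-plasmablast mean (y axis). The axes share no library, but they may share animals or cultures. Genes called lower lie below 0 on both axes, and those called higher lie at or above 0 on the y axis.

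The ko effect in plasmablasts differed from that in activated B cells for 5 genes, 0.0452% of those tested: Mzb1, Atp9a, Cdkn2a, Tpt1 and Snora28. Snora28 was listed at 0 in all plasmablast libraries and passed the filter only through the wt activated B cell libraries. Its result therefore says nothing about plasmablasts. The ko effect in plasmablasts minus that in pre-plasmablasts gave 0 genes by limma (0%), with 272 at an unadjusted p under 0.05 and a smallest adjusted p of 0.787. Of the 45 genes, 9 were also called in pre-plasmablasts, where 13 of 11069 genes were called in all. In activated B cells 3 of the 45 were also called, where 6 genes were called in all. Mzb1, the targeted gene, is counted in the 9 and in the 3. Among the 16 genes that fell in plasmablasts, 8 rose along the wt step from activated B cells to pre-plasmablasts (50%) and 3 fell. Of all genes 27.1% rose along it. The 8 include Mzb1.

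Several genes with large values were not called. Apoe, which carries lipids, was 92.6 and 130 FPKM in wt and 307 and 321 FPKM in ko (log2 1.51, adjusted p = 0.059). Eif3j1 was 11.2 and 11.1 FPKM in wt and 0.153 and 0.129 FPKM in ko, while its near-identical copy Eif3j2 was 0.00726 and 0.0376 FPKM in wt and 9.33 and 10.6 FPKM in ko. The level passes between these copies in single libraries of the other populations too, so their values are uncertain. Gdpd3 was 55.1 FPKM in wt replicate 1, 0.168 FPKM in wt replicate 2, and 86.6 and 91.7 FPKM in ko. Snora64, a small nucleolar RNA, was 70.8 and 156 FPKM in wt and listed at 0 in both ko libraries. These genes were given as values because their libraries did not overlap between genotypes.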

How the data were processed

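The 12 libraries were made from polyadenylated RNA with a stranded TruSeq kit, per the labels' protocols. The deposited values are FPKM per gene symbol, 24325 symbols in each library. The submitters' processing notes name the mm9 build and, as tools, TopHat2 2.0.14, Cuffnorm 2.2.1, Cuffdiff, Cufflinks 2.2.1 and bcl2fastq (2.17.1.14 and 0.3.1). The annotation, the library scaling and any filter are not given in the sources used here, so a scaling by the authors could move every change.

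The 11069 genes that reached 1 FPKM in 2 or more libraries were analysed as log2(FPKM + 1) in limma 3.58.1 (limma-trend, R 4.3.3), with 1 mean per group over 12 libraries, 6 residual and 4.49 prior degrees of freedom, two-sided, and Benjamini-Hochberg adjustment over all genes. SE is that of the limma log2 change. Tools that need counts were not used.

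Named genes were fixed markers and integrins, every called gene, up to 4 members of each of 35 lists by p, genes called in an interaction, and the 8 genes each way with the largest change among those not called whose libraries did not overlap and that reached a mean of 5 FPKM. Called or not, other list members are named as the lowest or highest of a list or for their role, after their values were seen. The members and lists were chosen with earlier results of these data known. Replicate numbers do not mark pairs in the labels. Sequences and gene order come from RefSeq GRCm38.p6. Figures used matplotlib 3.10.9 in Python 3.11.15.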

Additional observations from a re-analysis of the deposited data

Results flagged for a closer look

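The ko effect on 5 genes differed between plasmablasts and activated B cells by the limma interaction test, each result being the effect in plasmablasts minus that in activated B cells on the log2 scale. Mzb1 differed by -2.36 (adjusted p = 0.000434): its wt level was lower in activated B cells, at 845 and 1016 FPKM. Atp9a differed by 2.25 (adjusted p = 0.00953), with all 4 activated B cell libraries at or below 0.673 FPKM. Cdkn2a differed by -2.01 (adjusted p = 0.0128) and Tpt1 by -1.30 (adjusted p = 0.0194). Snora28 differed by 5.69 (adjusted p = 0.000417) without a change in plasmablasts: it was 76.2 and 33.5 FPKM in wt activated B cells and listed at 0 in the other 10 libraries. It passed the filter only through those wt libraries, so this result is no evidence of a ko effect in plasmablasts. What sets these differences was not tested.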

How the results depend on the processing

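The 45 calls in plasmablasts became 27 with no filter, 72 with equal totals, 8 with the plasmablast libraries alone, 4 with the fragment pattern term, 3 with a minimum log2 change of 1, 10 with wt replicate 1 left out of all populations, and 10 to 40 with 1 plasmablast library left out. With the replicate block the count was 59, of which 44 were among the 45. The 5 genes that differed from activated B cells became 2 with a minimum change of 1, 0 without wt replicate 1 in all populations and 1 to 10 with 1 library left out. The 0 genes that differed from pre-plasmablasts became 4 with no filter, 1 with the fragment pattern term and 0 to 1 with 1 library left out. Why these counts moved was not tested, except that a minimum change is stricter by construction. Mzb1 stayed called under the 16 other settings (log2 -4.17 to -3.44), Itgb1 stayed uncalled, and the 45 genes kept their direction wherever they were tested. Replicate differences of wt and ko correlated across genes at -0.047 in plasmablasts, -0.0822 in pre-plasmablasts and -0.11 in activated B cells. These values cannot decide whether replicates were paired. Xist marked wt replicate 1 in each population, and the ko replicates differed in fragment pattern in pre-plasmablasts and activated B cells. Blocks of 1 genotype and replicate number across populations had a consensus correlation of 0.168. With the activated B cell ko numbers crossed in the block, a choice made after seeing the data, 5 genes differed from activated B cells. The depth behind the FPKM is unknown, which limits genes near 1 FPKM such as Tlr9, H2-Oa and Itgam.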

Other observations

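Further genes called higher in ko plasmablasts, named one by one and not as a group, were these. Pde2a, a phosphodiesterase of cyclic nucleotides, was 1.27 and 0.781 FPKM in wt and 3.90 and 3.23 FPKM in ko. Rgs16, which turns off G protein signals, was 1.083 and 1.099 FPKM against 2.97 and 2.63 FPKM. Dusp6, a phosphatase of the ERK kinases, was 14.7 and 15.1 FPKM against 26.8 and 22.3 FPKM, and Plk3, a stress-linked kinase, 6.53 and 5.82 against 14.2 and 9.77 FPKM. Stard4, a sterol carrier, was 11.9 and 9.80 FPKM against 17.2 and 18.5 FPKM, so that it rose while Acat2 fell. Otud1, a deubiquitinase, was 12.7 and 11.1 FPKM against 17.99 and 18.4 FPKM. In each of these genes both ko libraries were above both wt libraries, as in every gene called higher.

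Other lists held few called genes. Cxcr5 was the only one called of 15 homing and sphingosine receptors, Stard4 of 28 sterol and fatty acid genes (Acat2 not among them) and Il2ra of 31 genes of growth and TGF-beta signalling. Of 22 p53 targets and Cdk inhibitors Tusc1 rose and Cdkn2a fell. The lists of integrin activation (27 tested), calcium handling (33), Bcl2 family and cell death (28, Bcl2l15 not among them), mitosis (32), NF-kappaB (27), immediate early genes (23), glycolysis (21), autophagy and lysosome (33), chromatin regulators (25), paired immunoglobulin-like and Fc receptors (11) and sex-linked transcripts (9) held 0. DNA replication held 0 of 36. Both ko libraries were below both wt libraries for 18 of these, against 21.2% of all genes. The median log2 change was -0.07, which became 0.03 with equal totals. Of 23 immediate early genes 13 had both ko libraries above both wt libraries and 2 below (median 0.22). For chromatin regulators these counts were 13 and 3 of 25 (0.12), and for Toll-like receptor genes 13 and 3 of 20 (0.18). Over all genes 28.0% lay above, so upward shifts were not particular to the B cell lists.

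Chromosome 4 carried 7 of the 45 called genes (15.6%) and 6.25% of the tested genes with a position in GRCm38.p6. They are Cd72, Pax5, Coro2a, Cdkn2a, Tusc1, Plk3 and Isg15, of which 4 rose and 3 fell. In gene order 15 tested genes lie between Cd72 and Pax5, 21 between Pax5 and Coro2a and 1 between Cdkn2a and Tusc1. Tusc1 rose where Cdkn2a fell.

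Gdpd3 was near 0 in wt replicate 2 of every population, at 0.189 FPKM in activated B cells, 0 in pre-plasmablasts and 0.168 FPKM in plasmablasts. In the other 9 libraries it was 14.9 FPKM or more.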
